A study of Rattus norvegicus with 17 samples.

Results

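The tight junction and claudin genes Cldn1, Cldn3, Cldn4, Cldn5, Cldn7, Cldn8, Cldn10, Ocln, Tjp1 and Tjp3 were followed by symbol in the rat meibomian gland (MG), the lipid-secreting gland of the eyelid. Of these 10 members, 9 were among the 17251 genes listed, and Cldn5 was not analysed here. All 9 reached at least 1 TPM (transcript abundance scaled to transcript length and to the sum of the sample) in 3 or more rats, the filter for testing that 13105 genes passed.

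RNA was sequenced from the dissected MG of 17 female Sprague-Dawley rats aged 10 to 12 weeks. WT rats gave 4 Control and 3 UVB samples, and P1.hMR rats gave 5 of each. P1.hMR rats carry the human mineralocorticoid receptor under the P1 promoter of its gene NR3C2, which is active in tissues that express the receptor, so the transgene is not limited to the MG. The UVB groups had their upper eyelids shaved and irradiated with ultraviolet B on 5 days, and the Control groups had no irradiation. Shaving of the Control groups is not described, so effects of shaving and of UVB cannot be told apart here. Each sample is taken here as 1 rat, since the study treated both eyes of an animal as a single pooled sample where both were used. The UVB groups hold 8 rats and the Control groups 9, and with 3 rats the UVB WT group gives the least certain means.

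The labels were checked first. The transgene NR3C2 was listed at 0 in each of the 7 WT rats, while the 10 P1.hMR rats had 5.31 to 9.31 TPM of it. The lipid genes that define meibocytes were high, with Scd (stearoyl-CoA desaturase) at a mean of 26900 TPM and Awat2 (a wax ester synthase) at 9250 TPM over the 17 rats, and all 12 meibocyte markers passed the filter. The dissected tissue also held other cells. Markers of epidermis, skeletal muscle, hair shaft, endothelium, leukocytes and Schwann cells were all detected. So were markers of simple and mucosal epithelium, with Krt13 at a mean of 3950 TPM and Krt4 at 1290 TPM. Of 6 secretory acinar gland genes listed 4 passed the filter, with Slc12a2 highest at 24.9 TPM and Bhlha15 next at 6.1 TPM. Another of the 6, Bpifa2, a salivary and lacrimal gland gene, was at 0 in every rat. In such bulk tissue fewer cells of a type and less RNA per cell cannot be told apart.

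Tight junctions seal the space between neighbouring epithelial cells and set which ions and water pass there. Claudins are membrane proteins that form the strands, some tightening the seal and others forming channels. Occludin (Ocln) lies in the same strands, and the zonula occludens proteins (Tjp1 or ZO-1, and Tjp3 or ZO-3) bind the tails of claudins and occludin from inside the cell and link them to actin.

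The 9 genes stood at very different levels in the MG. Cldn1, the claudin on which the skin barrier depends, was the highest, with a mean of 301 TPM and a range of 228 to 387. Cldn4, a sealing claudin of many glands, followed at 113 TPM. Both were separated from the genes next in order in every rat. Tjp1 with 38.2 TPM stood above Ocln with 33.2 TPM in 17 of 17 rats, and Ocln above Tjp3 with 22.6 TPM likewise, although the ranges over all rats overlapped. Tjp3 and Cldn7 (21.7 TPM) could not be placed in order, since Tjp3 was above Cldn7 in only 8 of 17 rats. The same held for Cldn3 (8.28 TPM) against Cldn8 (7.23 TPM), with 8 of 17 rats. Cldn10 was near the detection filter at 1.13 TPM and below all other members in every rat.

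**Figure D1:**
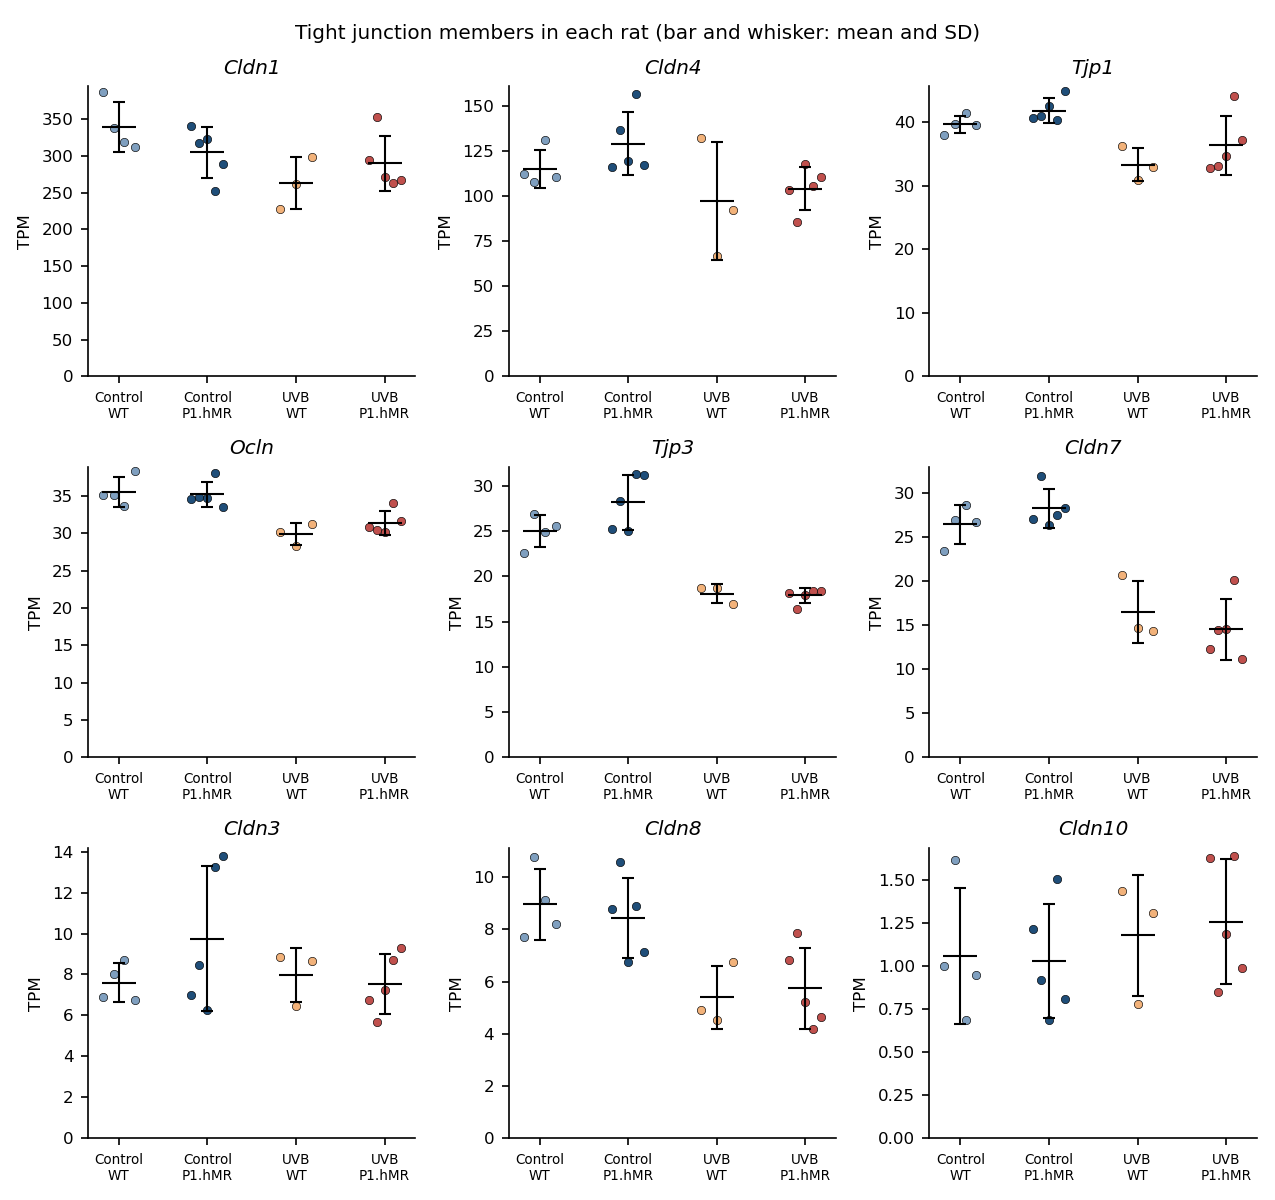
TPM of the 9 genes in each of the 17 rats (vertical axes from 0, in TPM), in the order of their mean level; points are rats, bars and whiskers the mean and SD of each group. Cldn7 and Tjp3 in all 8 UVB rats lie below all 9 control rats, while Cldn3 and Cldn10 overlap throughout.

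The first question was how these genes stood after UVB. Cldn7, Cldn8 and Tjp3 fell and no member rose. In WT rats 2 of the 9 members, Cldn7 and Cldn8, were called lower, which took an adjusted p under 0.05 (limma, Benjamini-Hochberg over all genes tested) with a log2 fold change of 0.5 or more in size, against 3.98% of all genes called lower. In P1.hMR rats 2 of 9 were called lower, Cldn7 and Tjp3, against 5.71% of all genes. With both genotypes averaged, Cldn7, Cldn8 and Tjp3 were called, 3 of 9 against 4.88% of all genes. The members were chosen with earlier results of these data known, so such shares describe the list and do not test it. The averaged call of Cldn8 was lost with endothelial genes as a covariate, at -0.43 (limma adjusted p = 0.135), and with hair keratins as a covariate added after the data were seen, at -0.46 (limma adjusted p = 0.0552). The median log2 fold change of the members was -0.30 in WT rats, where that of all genes tested was 0.0054, and -0.29 in P1.hMR rats, where that of all genes was -0.0164.

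Without the fold threshold the count was larger. An adjusted p under 0.05 with a lower level was reached by 6 of 9 members in WT (10.3% of all genes), 5 of 9 in P1.hMR (20.6%) and 7 of 9 with genotypes averaged (24% of all genes). The WT count was 3 without Control WT rat 2 or UVB WT rat 2. Groups without overlap, with every UVB rat below every control rat, were seen for 6 of 9 members in WT (12.6% of all genes) and 2 of 9 in P1.hMR (14% of all genes).

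Among the claudins, Cldn7, which sits along the lateral membrane as well as in the strands, was called lower in both genotypes. In WT it measured 23.4, 26.95, 28.6 and 26.7 TPM without UVB and 20.6, 14.7 and 14.3 TPM after it. In P1.hMR rats it measured 27, 31.9, 26.3, 27.4 and 28.3 TPM without UVB and 12.3, 14.4, 14.6, 20.1 and 11.2 TPM with it. All 8 UVB rats were below all 9 control rats, which was so for 5.33% of all genes. The log2 fold change on the TPM + 1 scale was -0.66 ± 0.15 (SE) in WT (limma adjusted p = 0.00637) and -0.93 ± 0.13 in P1.hMR (limma adjusted p = 3.59e-05). These are 0.634 and 0.523 times the control value of TPM + 1. In an exact two-sided permutation of the UVB labels within each genotype, p was 0.000113, the smallest that the 8820 arrangements can give. With each rat left out in turn the fold change stayed between -0.82 and -0.57 in WT, with a largest limma adjusted p of 0.0323, and between -1.05 and -0.85 in P1.hMR.

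Cldn8, a claudin of the distal nephron that is also found in other epithelia, was lower after UVB from a lower level. In WT the control rats had 7.71, 10.8, 9.12 and 8.21 TPM and the irradiated rats 4.90, 4.53 and 6.76 TPM. The Control P1.hMR rats had 8.78, 10.6, 6.77, 8.91 and 7.15 TPM and the UVB P1.hMR rats 6.83, 7.87, 5.21, 4.19 and 4.66 TPM. The WT groups did not overlap, whereas in P1.hMR the irradiated rats 1 and 2 reached into the control range. The log2 fold change was -0.64 ± 0.18 in WT (limma adjusted p = 0.0198) and -0.498 in P1.hMR (limma adjusted p = 0.016), the latter just short of the fold threshold of 0.5. The exact permutation over both genotypes gave p = 0.00068. The WT call was lost without Control WT rat 2, UVB WT rat 1 or UVB WT rat 2 (limma adjusted p of 0.0576, 0.0654 and 0.0862), while the log2 fold change stayed between -0.79 and -0.55. In P1.hMR Cldn8 passed the threshold when Control P1.hMR rat 3 or 5, or UVB P1.hMR rat 1 or 2, was left out, with values of -0.56, -0.55, -0.56 and -0.60. It also passed with a pseudocount of 0.1 (-0.57), with sample weights (-0.52) and with the simple and mucosal epithelium markers as a covariate (-0.63).

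Markers of hair shaft and blood vessel moved with UVB beside these genes. Of 9 hair keratins 5 were called lower in WT and 3 in P1.hMR, where 3.98% and 5.71% of all genes were called lower. All 9 had log2 fold changes below 0 in each genotype, with medians of -1.02 and -0.62. Their summed level lay between 389 and 815 TPM in Control WT and between 185 and 475 TPM in UVB WT. In P1.hMR it lay between 313 and 835 TPM in Control and between 275 and 421 TPM in UVB rats. None of the 9 was at 0, and Krt31 and Krt86 were the highest. Of 13 endothelial genes 3 were called higher in each genotype, where 3.92% and 5.05% of all genes were. Only 1 of the 13 in WT and 3 in P1.hMR lay below 0, with medians of 0.37 and 0.21. With the hair keratins as a covariate, added after the data were seen, Cldn7 in WT had -0.58 (limma adjusted p = 0.0827) and Cldn8 in WT -0.50 (limma adjusted p = 0.203), so neither stayed called. Cldn7 in P1.hMR kept -0.89 (limma adjusted p = 0.00045). With the endothelial genes as a covariate Cldn7 in WT had -0.67 (limma adjusted p = 0.0816), against -0.66 without it, so its size was kept while the call was lost. Cldn8 in WT had -0.48 (limma adjusted p = 0.28) with them. The summed endothelial level was 108 to 126 TPM in Control WT and 146 to 172 TPM in UVB WT, so this covariate and UVB are hard to tell apart in WT. With skeletal muscle genes as a covariate Cldn8 in WT had -0.61 (limma adjusted p = 0.0514). Of the 8 pan-epithelial markers, among them Cdh1 and Epcam, none was called by limma in either genotype. Their medians were 0.02 in WT and 0.03 in P1.hMR. In WT 5 of the 8 had an unadjusted limma p under 0.05, against 35.3% of all genes. In each genotype 4 of the 8 lay below 0. Epcam, under the fold threshold, had -0.32 in WT (limma adjusted p = 0.00269) and -0.34 in P1.hMR (limma adjusted p = 0.000125). For Epcam every UVB rat was below every control rat, which was so for 5.33% of all genes. In the order WT and P1.hMR, 1 and 2 of 11 skeletal muscle genes were called lower, while 11 and 9 lay below 0. Of 8 epidermal suprabasal genes 2 and 1 were called lower, with 3 and 4 below 0. Of 6 simple and mucosal epithelium genes 1 and 2 were called lower, with 2 and 4 below 0 and medians of 0.07 and -0.57. With the markers of this list as a covariate, added after the data were seen, Cldn7 had -0.73 in each genotype. Its limma adjusted p was then 0.000738 in WT and 0.000261 in P1.hMR. Of 11 leukocyte genes 1 and 2 were called higher, with 5 and 6 below 0. Of 12 meibocyte genes 1 was called higher and 1 lower in WT, and 1 higher and 2 lower in P1.hMR, with 7 and 8 below 0. Of 4 secretory acinar genes 0 were called (limma), with 1 in WT at an unadjusted p under 0.05, against 35.3% of all genes. Beyond these covariate fits, the part of other cell types in the results was not tested.

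Tjp3, the scaffold protein ZO-3 restricted largely to epithelia, had the smallest standard error of the 3 called members. It measured 22.6, 26.9, 25.0 and 25.5 TPM in Control WT and 18.7, 18.7 and 16.9 TPM in UVB WT rats. It measured 25.3, 28.4, 25.0, 31.3 and 31.2 TPM in Control P1.hMR and 18.1, 16.4, 17.99, 18.4 and 18.4 TPM in UVB P1.hMR rats. Every UVB rat was below every control rat, and the 5 UVB P1.hMR rats stayed within 16.4 to 18.4 TPM. The log2 fold change was -0.44 ± 0.08 in WT (limma adjusted p = 0.00167), under the fold threshold, and -0.63 ± 0.07 in P1.hMR (limma adjusted p = 5.57e-06), where it was called. The exact permutation again gave p = 0.000113. With a rat left out the value stayed between -0.49 and -0.40 in WT and between -0.67 and -0.59 in P1.hMR. With the hair keratins as a covariate Tjp3 in P1.hMR had -0.61 (limma adjusted p = 7.72e-05), and with the endothelial genes Tjp3 in WT had -0.64 (limma adjusted p = 0.00558), past the fold threshold.

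Ocln and Tjp1 were lower by less than the fold threshold. Ocln measured 35.1, 35.2, 33.6 and 38.4 TPM in Control WT, 30.2, 28.3 and 31.2 TPM in UVB WT, 34.5, 34.8, 34.8, 38.1 and 33.5 TPM in Control P1.hMR and 30.8, 30.4, 30.2, 34.1 and 31.7 TPM in UVB P1.hMR rats. Its groups were apart in WT, while UVB P1.hMR rat 4 overlapped the controls. The log2 fold changes were -0.24 ± 0.06 in WT (limma adjusted p = 0.00815) and -0.16 ± 0.05 in P1.hMR (limma adjusted p = 0.0169), with an exact permutation p of 0.000227 over both genotypes. Tjp1 measured 38.0, 39.7, 41.4 and 39.5 TPM in Control WT, 36.2, 30.9 and 32.9 TPM in UVB WT, 40.6, 40.9, 42.4, 40.3 and 44.9 TPM in Control P1.hMR and 32.8, 33.0, 34.6, 44.0 and 37.1 TPM in UVB P1.hMR rats. Here too the WT groups were apart, and UVB P1.hMR rat 4 at 44.0 TPM stood among the controls and away from the other 4 irradiated rats. The log2 fold changes of Tjp1 were -0.25 ± 0.08 (limma adjusted p = 0.0442) and -0.21 ± 0.07 (limma adjusted p = 0.0249), with an exact permutation p of 0.00125. Leaving out UVB WT rat 2 brought the limma adjusted p of Tjp1 in WT to 0.171, whereas that of Ocln stayed at or below 0.0442.

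The 2 most abundant claudins moved less clearly. Cldn1 measured 387, 338, 319 and 312 TPM in Control WT and 228, 262 and 299 TPM in UVB WT rats, without overlap, and 341, 318, 323, 252 and 289 TPM in Control P1.hMR and 294, 353, 271, 264 and 267 TPM in UVB P1.hMR rats, with overlap. The log2 fold change was -0.37 ± 0.12 in WT (limma adjusted p = 0.035) and -0.07 ± 0.10 in P1.hMR (limma adjusted p = 0.584). The difference between these responses was 0.30 with a 95% interval from -0.03 to 0.62 (limma adjusted p = 0.758), so the responses of the genotypes were not shown to differ. With the endothelial covariate Cldn1 stood at 0.001 in WT and 0.18 in P1.hMR, and without UVB WT rat 1 at -0.27 in WT (limma adjusted p = 0.154). Cldn4 measured 112, 108, 131 and 110.3 TPM in Control WT and 132, 66.9 and 92.0 TPM in UVB WT rats. UVB WT rat 1 lay above all 4 controls and UVB WT rat 2 was the lowest of the 17 rats. In P1.hMR Cldn4 measured 116, 137, 119, 156 and 117 TPM without and 103, 85.6, 118, 105 and 111 TPM with UVB. The log2 fold change of Cldn4 was -0.30 in both genotypes (limma adjusted p = 0.223 in WT and 0.0989 in P1.hMR), and in WT it ran from -0.54 without UVB WT rat 1 to -0.06 without UVB WT rat 2. The endothelial covariate took it past both thresholds, at -0.78 in WT and -0.63 in P1.hMR.

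Cldn3 and Cldn10 gave no difference beyond the spread. Cldn3, a sealing claudin close to Cldn4, had means of 7.59 ± 0.946 TPM (SD, n = 4) in Control WT, 9.75 ± 3.54 TPM (n = 5) in Control P1.hMR, 7.98 ± 1.33 TPM (n = 3) in UVB WT and 7.53 ± 1.48 TPM (n = 5) in UVB P1.hMR. The wide spread of Control P1.hMR came from rats 4 and 5 with 13.3 and 13.8 TPM, above all other rats. Its log2 fold changes of 0.06 and -0.29 had 95% intervals from -0.41 to 0.53 and from -0.68 to 0.10, and with the endothelial covariate the values were -0.71 and -0.80, the latter called. Cldn10, a claudin that forms ion channels, had group means between 1.03 and 1.26 TPM and log2 fold changes of 0.08 and 0.15, with 95% intervals from -0.30 to 0.46 and from -0.16 to 0.47. How reads were divided between similar claudins cannot be seen in TPM.

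**Figure D2:**
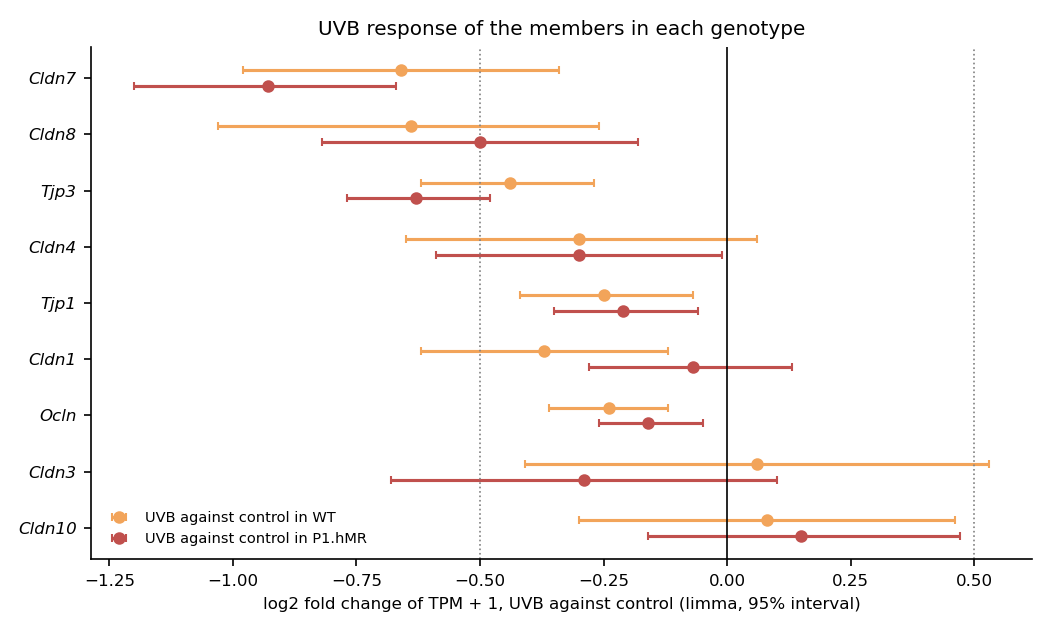
Log2 fold change of TPM + 1 with UVB for each of the 9 genes (limma, points with 95% intervals), in WT and in P1.hMR rats, in the order of the averaged response; dotted lines mark the fold threshold of 0.5. Cldn7 lies at -0.66 and -0.93, and the intervals of Cldn3 and Cldn10 include 0.

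The promoters of the genes called after UVB were read from RefSeq (build GRCr8, 250 bases before to 50 after the start of the gene), to show what sequence lies at the start of each, together with that of Cldn17, the neighbour of Cldn8 described further on. A promoter was found for 8 of the members, and Cldn4 is one without an entry. Capitals mark matches on either strand to any of 6 motifs: the Grainyhead core ACCGGT (in 3.06% of 12223 promoters), the E-box CAGGTG bound by Snail and Zeb factors (19.2%), the steroid receptor half-site AGAACA (13.4%), the AP-1 site TGANTCA (5.65%), the TATA box TATAAA (8.43%) and the GC box GGGCGG (56.4%). On the minus strand CAGGTG reads CACCTG and GGGCGG reads CCGCCC. Matches are descriptions of letters and not of binding.
Cldn7, chr10:55188420-55188719, plus strand: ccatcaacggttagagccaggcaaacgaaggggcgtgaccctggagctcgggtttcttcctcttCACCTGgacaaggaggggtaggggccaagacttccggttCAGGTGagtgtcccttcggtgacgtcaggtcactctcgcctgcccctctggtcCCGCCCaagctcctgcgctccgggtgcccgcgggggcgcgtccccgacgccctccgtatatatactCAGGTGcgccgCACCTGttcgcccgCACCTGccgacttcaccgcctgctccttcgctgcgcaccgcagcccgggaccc
Tjp3, chr7:9084174-9084473, plus strand: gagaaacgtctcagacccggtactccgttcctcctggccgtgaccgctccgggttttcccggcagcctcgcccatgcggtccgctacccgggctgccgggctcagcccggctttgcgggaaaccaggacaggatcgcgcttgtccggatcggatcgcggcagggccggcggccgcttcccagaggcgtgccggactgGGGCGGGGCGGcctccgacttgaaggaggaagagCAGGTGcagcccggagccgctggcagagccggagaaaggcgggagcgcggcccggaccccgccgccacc
Cldn8, chr11:41364281-41364580, minus strand: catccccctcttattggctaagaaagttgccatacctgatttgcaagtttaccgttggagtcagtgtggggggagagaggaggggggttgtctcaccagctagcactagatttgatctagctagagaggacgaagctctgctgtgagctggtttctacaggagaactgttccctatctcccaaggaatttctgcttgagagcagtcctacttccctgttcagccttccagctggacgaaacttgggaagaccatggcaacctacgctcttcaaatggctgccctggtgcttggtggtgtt
Cldn17, chr11:41314802-41315101, minus strand: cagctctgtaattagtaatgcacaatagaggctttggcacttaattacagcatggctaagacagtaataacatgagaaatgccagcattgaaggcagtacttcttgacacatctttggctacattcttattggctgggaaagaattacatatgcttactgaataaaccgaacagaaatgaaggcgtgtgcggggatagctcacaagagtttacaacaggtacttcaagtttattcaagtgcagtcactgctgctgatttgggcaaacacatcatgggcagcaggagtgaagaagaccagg
The Cldn7 window held 5 matches to CAGGTG, at -186, -147, -28, -17 and -3 from the start, and 1 GC box. The Tjp3 window held 1 CAGGTG at -19 and 2 GC boxes that overlap each other. The windows of Cldn8 and Cldn17 held none of the 6 motifs. Among the other members with a promoter, Ocln had 2 matches to CAGGTG and Cldn3 had 1, whereas Cldn1 had GC boxes only.

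The second question was whether the human receptor altered these genes. Without UVB, 0 of the 9 members were called between P1.hMR and WT (limma), with 0.00763% of all genes called, and 1 member had an unadjusted p under 0.05 against 4.03% of all genes. That member was Tjp3, at 0.17 with a 95% interval from 0.01 to 0.32 (limma adjusted p = 0.998). The log2 fold changes of the members ranged from -0.16 for Cldn1 to 0.27 for Cldn3. Under UVB, 0 of 9 were called (limma), with 0.0229% of all genes called, and 0 had an unadjusted p under 0.05, against 10.3% of all genes. Those values ranged from -0.19 for Cldn7 to 0.15 for Cldn4, with a smallest limma adjusted p of 0.663.

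The interaction of genotype and UVB, the difference between the UVB responses of P1.hMR and WT, was likewise called by limma for 0 of 9 members and for 0% of all genes, with 0 members at an unadjusted p under 0.05 against 6.92% of all genes. It was -0.28 for Cldn7 with a 95% interval from -0.69 to 0.14, 0.15 for Cldn8 with an interval from -0.36 to 0.65, and -0.18 for Tjp3 with an interval from -0.41 to 0.04. The interval of Tjp3 is the narrowest of these 3, and a stronger fall in P1.hMR rats of up to 0.41 lies inside it. With the simple and mucosal epithelium markers as a covariate, the interaction was -0.001 for Cldn7, -0.03 for Cldn8 and -0.04 for Tjp3. The different sets of genes called in WT and P1.hMR were thus not shown to reflect different responses.

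Claudin composition was taken from the 21 claudin genes listed, of which 12 passed the filter. Their summed level was 548 ± 30.4 TPM (SD, n = 4) in Control WT, 533 ± 19.5 TPM (n = 5) in Control P1.hMR, 442 ± 38.3 TPM (n = 3) in UVB WT and 486 ± 21.8 TPM (n = 5) in UVB P1.hMR. Cldn1 made up 61.8% and 57.0% of this sum in the control groups and 59.7% and 59.4% in the UVB groups, in the order WT and P1.hMR. Cldn7 took 4.84% and 5.28% without UVB and 3.76% and 2.99% with it. Cldn17 took 0.903% and 0.741% without UVB and 2.51% and 4.59% with it, the opposite direction to Cldn7.

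Cldn17, a claudin that forms anion-selective channels and lies next to Cldn8 in the gene order of GRCr8, rose in both genotypes. It measured 4.98, 3.25, 5.97 and 5.54 TPM in Control WT and 8.48, 9.71 and 15.4 TPM in UVB WT rats. In P1.hMR rats it measured 4.09, 2.75, 5.20, 4.31 and 3.36 TPM without and 19.1, 17.2, 17.99, 27.7 and 28.9 TPM with UVB. It was called higher in WT, as were 3.92% of all genes, and in P1.hMR, as were 5.05%. Every UVB rat was above every control rat, which was so for 5.51% of all genes, and every UVB P1.hMR rat was above every UVB WT rat, where 5.87% of all genes had such a gap in either direction. The log2 fold change was 1.02 ± 0.23 in WT (limma adjusted p = 0.0056) and 2.22 ± 0.19 in P1.hMR (limma adjusted p = 1.02e-06). The interaction was 1.2 with a 95% interval from 0.56 to 1.83, but its limma adjusted p was 0.704 over all genes. Under UVB, P1.hMR exceeded WT by 0.93 (limma adjusted p = 0.218), which was not called. With a rat left out this value ran from 0.77 to 1.17, with a limma adjusted p from 0.0316 to 0.567. It was called only without UVB WT rat 3, the highest of the 3 rats of its group. The ratio of Cldn17 to Cldn8 in TPM was 0.569 ± 0.179 (SD, n = 4) in Control WT, 0.489 ± 0.181 (n = 5) in Control P1.hMR, 2.05 ± 0.282 (n = 3) in UVB WT and 4.25 ± 2.03 (n = 5) in UVB P1.hMR. Cldn8 was thus the higher of the pair in every control rat and Cldn17 in every UVB rat. With the endothelial genes as a covariate Cldn17 in WT had 0.83 (limma adjusted p = 0.14).

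**Figure D3:**
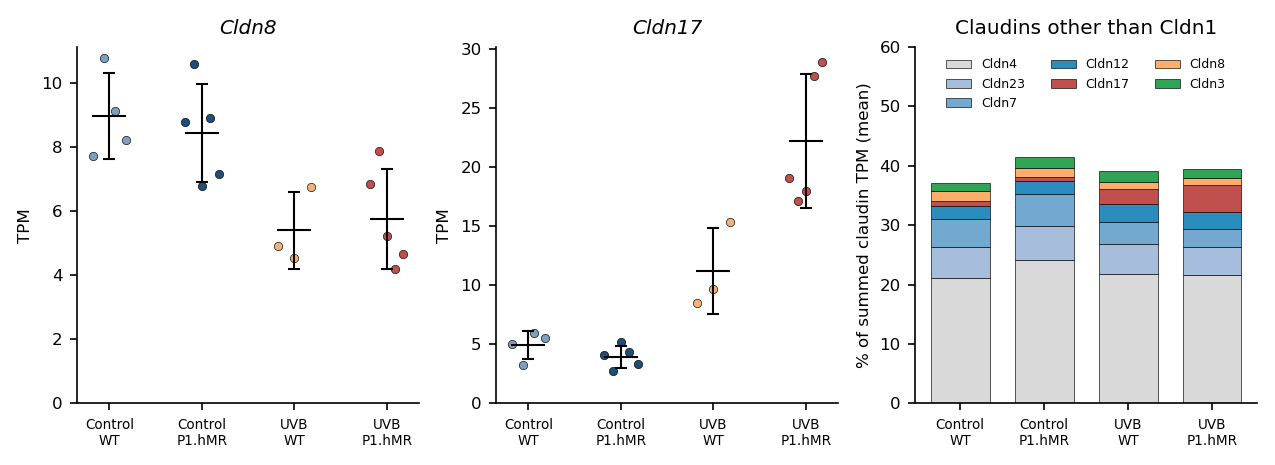
TPM of Cldn8 and Cldn17 in each rat (left and middle, points with mean and SD of each group) and the mean share of the summed claudin TPM taken by 7 claudins other than Cldn1 (right, stacked bars in percent). Cldn17 rises from 0.903% to 2.51% of the sum in WT and from 0.741% to 4.59% in P1.hMR, while Cldn8 in TPM is lower after UVB.

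The other genes of the junction were read from 4 lists. Of 17 other claudins and claudin-domain genes listed, 7 passed the filter, of which Cldn17 was the only one called in WT. In P1.hMR 2 were called, Cldn17 higher and Cldn11 lower, where 5.05% of all genes were called higher and 5.71% lower. Cldn11, known from myelin and Sertoli cell junctions, had -0.81 in P1.hMR (limma adjusted p = 0.00116) and -0.15 in WT (limma adjusted p = 0.621). The UVB groups had means of 1.33 TPM in WT and 1.29 TPM in P1.hMR, whereas the control means were 1.65 and 3.02 TPM, and the interaction of -0.65 was not called (limma adjusted p = 0.704). In P1.hMR all 5 UVB rats, at 0.76 to 1.58 TPM, were below all 5 controls, at 2.40 to 4.45 TPM. Markers of Schwann cells, the myelin-forming cells of nerves, were also lower after UVB, in both genotypes. In P1.hMR 2 of 7 were called lower (median -0.38), against 5.71% of all genes. In WT, where Cldn11 was not called, 3 of 7 were called lower (median -0.37), against 3.98% of all genes. The summed levels of these markers were 175 to 247 TPM in Control P1.hMR and 138 to 157 TPM in UVB P1.hMR rats. Their part in the Cldn11 result was not tested. Cldn23 and Cldn12, the most abundant claudins outside the members by the mean over all 17 rats, although Cldn17 exceeded Cldn12 in every UVB P1.hMR rat, had -0.36 and 0.17 in WT and -0.38 and 0.24 in P1.hMR, below the fold threshold.

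Of 10 other membrane proteins of the junction 8 passed the filter, with 1 called higher in WT (3.92% of all genes) and 2 lower in P1.hMR (5.71% of all genes). The former was Esam, an adhesion molecule of endothelial junctions, with 11.3, 13.8, 13.4 and 10.7 TPM in Control WT and 19.8, 18.3 and 18.5 TPM in UVB WT rats. Its log2 fold change was 0.59 ± 0.10 in WT (limma adjusted p = 0.000851) and 0.39 ± 0.08 in P1.hMR (limma adjusted p = 0.00135). The summed endothelial markers, led by Eng and Egfl7, were 108 to 126 TPM in Control WT and 146 to 172 TPM in UVB WT rats, and with them as a covariate Esam in WT had 0.31 (limma adjusted p = 0.0984). The 2 lower genes in P1.hMR were Ildr1, an angulin of the corners where 3 cells meet, at -0.70 (limma adjusted p = 0.000383), and Marveld3, a relative of occludin, at -0.73 (limma adjusted p = 0.00233). In WT these genes had -0.25 and -0.02.

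Of 24 other scaffold and polarity proteins 23 passed the filter, with 0 called by limma in WT and 2 lower in P1.hMR, where 5.71% of all genes were called lower. In WT 13 of the 23 had an unadjusted limma p under 0.05, against 35.3% of all genes. The 2 were Magi1, a scaffold of junctional membranes, at -0.69 (limma adjusted p = 8.16e-05), and Cgnl1, paracingulin, at -0.63 (limma adjusted p = 0.000959). In WT they had -0.49 (limma adjusted p = 0.0108) and -0.35 (limma adjusted p = 0.11). Of 12 regulators of claudin genes, all of which passed the filter, 1 was called lower in each genotype, against 3.98% of all genes in WT and 5.71% in P1.hMR. It was Elf3, an Ets factor of epithelia, at -0.51 in WT (limma adjusted p = 0.0103) and -0.52 in P1.hMR (limma adjusted p = 0.0011). Its value sat close to the threshold and ran from -0.64 to -0.41 in WT with a rat left out, the call being lost without Control WT rat 2, 3 or 4 or UVB WT rat 2 or 3, and in P1.hMR without Control P1.hMR rat 4 or 5, at -0.45 and -0.48. The call was also lost with the skeletal muscle covariate in both genotypes (-0.45 and -0.48), with the hair keratin covariate in WT (-0.49), and with the mucosal covariate in P1.hMR (-0.30). The medians of the 4 lists were between -0.19 and -0.08 in WT and between -0.15 and -0.12 in P1.hMR, closer to 0 than those of the 9 members. Members and lists alike were chosen with earlier results of these data known, so this contrast is a description. Without the fold threshold, a limma adjusted p under 0.05 with a lower level was reached by 6 of 12 regulators in WT and 7 in P1.hMR (10.3% and 20.6% of all genes). In the same order it was 4 and 10 of 23 scaffold and polarity proteins, 0 and 4 of 8 membrane proteins, and 1 and 2 of 7 other claudins. Higher levels at that p were reached by 1 and 1, 3 and 3, 2 and 2, and 1 and 2 genes of these lists. Such a fall was thus not limited to the members.

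**Figure D4:**
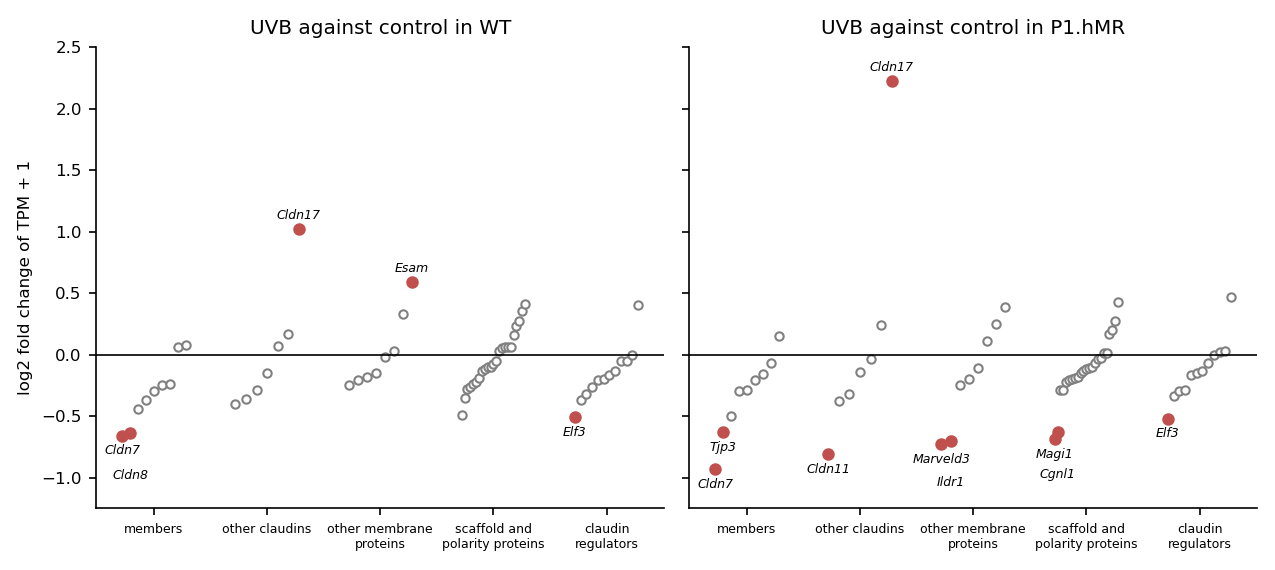
Log2 fold change of TPM + 1 with UVB in WT (left) and P1.hMR rats (right) for the 9 members and the other junction genes that passed the filter, 1 point per gene, in 5 lists; filled and named points were called by limma. Cldn17 stands highest at 1.02 and 2.22, and the remaining called genes are Cldn7 and Cldn8 or Tjp3 with the genes given in the text.

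Rats of a group also differed among themselves, and the members were compared with all genes of at least 5 TPM on average (9935 genes) by Pearson's r of their deviations from the group means over the 17 rats. These values are descriptions, and the points share libraries and dissections. The genes named are the highest of 9935 for each member, and the level expected by chance was not computed. The genes most like Cldn7 were Dipk1a (0.86), Scin (0.84) and F3 (0.83), and for Tjp3 they were Ltbp3 (0.90), Zfp574 (0.89) and Rbbp8nl (0.88). Genes like Cldn8 included Tcp11l2 (0.85) and Dach1 (0.83). Cldn1 had Ireb2 (0.94), Pnpla8 (0.91) and Rad17 (0.91), Cldn3 had Gabpb2 (0.91), Fxyd6 (0.91) and Nhsl1 (0.89), and Cldn4 had Trim35 (0.90), Cnksr3 (0.90) and Nenf (0.87). Ocln was most like Gm2a (0.87), Rbbp4 (0.86) and Ninj1 (0.84), Tjp1 like Ptprz1 (0.91), Myo5b (0.90) and Lmo7 (0.87), and Cldn10 like Pspc1 (0.86), AABR07015507.1 (0.85) and Bicral (0.83). Between members the values reached 0.76 for Cldn3 with Tjp3 and 0.67 for Cldn7 with Tjp1, and -0.80 for Cldn1 with Tjp3 and -0.66 for Cldn1 with Cldn3. No member was among the 3 genes most like another, although Cldn10, below the cut of 5 TPM, could not be.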

How the data were processed

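Total RNA of dissected MG was sequenced. After FastQC, the authors aligned reads to rn7 by STAR 2.5.3 and estimated gene levels by RSEM 1.2.28. They deposited these as TPM, to 2 decimals, for 17251 genes. The labels also name Trimmomatic, DRAGEN and Picard without a role. TPM keeps no counts, so depth per sample is unknown and precision comes from the spread between rats. TPM is relative to the other genes of a sample, so a change is relative as well. Whether reads were counted by strand is not given in the sources used here.

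Samples were grouped by their labels. The filter kept genes of 1 TPM or more in 3 or more rats. Their log2(TPM + 1) values entered a limma model (version 3.58.1 under R 4.3.3) of 4 group means with a variance trend, since the DESeq2 test of the authors needs counts. Calls needed a Benjamini-Hochberg adjusted p under 0.05 over all 13105 genes and a log2 fold change of 0.5 or more in size, as the study set them. Fold changes on this scale understate those of low genes. Single genes were also tested by two-sided exact permutation of UVB labels within genotype. The model was tested on simulated data. The remaining steps ran under Python 3.11.15 (pandas 2.3.3, numpy 2.4.6), with figures by matplotlib 3.10.9.

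The members, the lists of other junction genes and the marker lists were chosen with earlier results of these data known. Named genes were the members, the other junction genes called with UVB in either genotype, the 3 most abundant other claudins, the 3 genes most like each member (1 of which is not reported here), NR3C2, and for the marker lists described, genes at 0 in every rat and the highest 2. Alternatives changed the pseudocount, filter, scaling, samples fitted, variance model, thresholds, replicate block and marker covariates, and left out each rat. Promoters came from RefSeq (GRCr8), and gene order from its annotation of the same assembly.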

Additional observations from a re-analysis of the deposited data

Results flagged for a closer look

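Among 57 pairs of a gene and a group of 4 or 5 rats, covering 19 junction genes, 5 held 1 rat set apart from the rest of its group by Dixon's criterion, which chance meets in about 5% of groups (1 in 20). Ocln stood at 38.13 TPM in Control P1.hMR rat 4, above the other 4 rats of the group. Tjp3 stood at 16.35 TPM in UVB P1.hMR rat 2, below its group. Among the other junction genes, Cgnl1 stood low at 6.37 TPM in Control WT rat 1, Cldn11 high at 4.45 TPM in Control P1.hMR rat 3, and Cldn12 low at 9.88 TPM in Control P1.hMR rat 1. These 5 values fell in 5 different rats.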

How the results depend on the processing

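Of 1268 values of single genes under 17 alternatives, 1160 kept direction and call, 36 lost the call, 57 gained it and 15 changed direction. In WT the members called were 2 in the fit reported, 1 with skeletal muscle markers as a covariate (Cldn7) and 0 with hair keratins as a covariate (chosen after seeing the data). They were 6 with no fold threshold and 0 at a log2 fold threshold of 1. With endothelial markers as a covariate they were 2, but Cldn4 and Tjp3 in place of Cldn7 and Cldn8. In P1.hMR they were 4 with endothelial markers as a covariate (Cldn3, Cldn4, Cldn7 and Tjp3), 5 with no fold threshold and 0 at a threshold of 1, and 3 (with Cldn8) at a pseudocount of 0.1, with sample weights or with the mucosal covariate. For the averaged response they were 7 and 0 under those thresholds, 4 with the endothelial covariate (Cldn8 lost at an adjusted p of 0.135 by limma, Cldn3 at -0.76 and Cldn4 at -0.71 gained) and 2 with the hair keratin covariate (Cldn8 lost at a limma adjusted p of 0.0552). With a rat left out, 1 to 2 were called in WT and 2 to 3 in P1.hMR. Without UVB WT rat 1 the 2 called in WT were Cldn4 and Cldn7.

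Direction changed as follows in WT: Cldn1 to 0.001, Cldn3 to -0.71 and Cldn10 to -0.13 with the endothelial covariate; Cldn3 to -0.08 with the meibocyte and -0.03 with the mucosal covariate; Marveld3 to 0.05 with the replicate block, 0.001 with the muscle and 0.19 with the hair keratin covariate. In P1.hMR Cldn1 went to 0.18 with the endothelial and 0.02 with the meibocyte covariate. For the averaged response Cldn1 went to 0.09 and Cldn10 to -0.06 with the endothelial, and Cldn3 to 0.09 with the hair keratin covariate. With the mucosal covariate, Cldn1 between genotypes without UVB went to 0.03 and the interaction of Cldn8 to -0.03. The cause was not tested. With a rat left out, Cldn3 in WT ran from -0.01 to 0.19, Cldn10 from -0.01 to 0.22, Cldn11 from -0.28 to 0.003, Marveld3 from -0.12 to 0.08, and Cldn4 between genotypes under UVB from -0.08 to 0.40.

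The replicate numbers are not stated to pair rats, and deviations of 22 same-numbered pairs correlated between -0.19 and 0.24. A replicate block left the members called at 2 in WT, 2 in P1.hMR and 3 for the averaged response, and at 0 for the other comparisons. Among the other junction genes the block ended the call of Elf3 in WT (-0.45) and for the averaged response (-0.49). TPM gives no depth, so low genes such as Cldn10 carry an unknown counting error.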
